A study of Mus musculus with 6 samples.

Results

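The cell cycle and mitosis genes described here are a list of 60 genes: cyclins, cyclin-dependent kinases (CDKs) and their regulators, replication and G1/S genes, mitotic kinases, checkpoint and anaphase-promoting complex (APC/C) genes, centromere and kinetochore genes, condensin subunits, and genes of the spindle and of cytokinesis. Their members in the data are all splicing events whose gene symbol is on the list: 369 of the 45595 events of the deposited table, in 57 of the 60 genes and of 9594 genes in all. No event was listed for Ccnd2, Nek2 or E2f1. The 369 events comprised 268 skipped exons, 37 mutually exclusive exon pairs, 21 alternative 3′ sites, 17 alternative 5′ sites and 26 retained introns. They covered 296 distinct segments, since an exon can be listed more than once with different neighbouring junctions. Events of 1 gene therefore share reads and are not independent.

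The series measured RNA splicing in Neuro-2a (N2a), a neuroblastoma line from mouse. Its 6 libraries were made from total RNA, 3 from wild-type cells and 3 from cells with hnRNP DL knocked out, per the labels. The labels do not say how the knockout was made, whether it is 1 clone, or whether each library had its own culture. The p-values therefore weigh a difference against the spread of these 6 libraries, which may be technical. The table holds the libraries as 2 sets of 3 that no label ties to a genotype. They are called set 1 and set 2, every difference is set 1 minus set 2, and no genotype is attached to either.

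Progress through the cell cycle is driven by cyclins, which bind and activate CDKs and are made and destroyed in turn. CDK1 with cyclin B starts mitosis, kinetochores then attach chromosomes to the spindle, the spindle checkpoint holds back the APC/C until attachment is complete, and cytokinesis divides the cell. Many of these genes are transcribed periodically, so that their RNA level in a culture follows the share of cells in S phase, G2 and mitosis. Alternative splicing adds a further layer: an included exon can add a stretch of protein, move the start of translation, or bring in a stop codon that sends the RNA to nonsense-mediated decay (such an exon is called a poison exon).

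The segments below carry the alternative forms that the following paragraphs turn on; all are from GENCODE vM21 transcripts on GRCm38 (mm10), 5′ to 3′ on the gene's strand. They were chosen after their values had been seen, as segments with both forms well covered or with a small difference discussed below. Coding exons come first. The first 150 of the 312 bases of Kif23 exon 18 (chr9:61924067-61924216, minus strand) are shown because this exon, which tells the longer CHO1 form of the protein from the shorter MKLP1 form, had the largest difference without overlap among the skipped exons. In Cdk4 the capitals mark the start codon, at base 17 of the 234-base exon 2 (the 60 bases shown are chr10:127064236-127064295, plus strand). The other 5 are whole cassette exons whose lengths are multiples of 3.
Kif23 exon 18: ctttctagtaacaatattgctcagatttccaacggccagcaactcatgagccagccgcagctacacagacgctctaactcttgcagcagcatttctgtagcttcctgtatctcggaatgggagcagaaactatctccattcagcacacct
Kif23 42-base exon (chr9:61933229-61933270, minus): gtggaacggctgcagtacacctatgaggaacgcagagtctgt
Cdk4 exon 2: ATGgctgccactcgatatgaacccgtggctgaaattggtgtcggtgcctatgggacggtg
Ect2 93-base exon (chr3:27148795-27148887, minus): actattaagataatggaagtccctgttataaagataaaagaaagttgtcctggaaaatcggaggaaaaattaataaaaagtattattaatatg
Prc1 42-base exon (chr7:80313527-80313568, plus): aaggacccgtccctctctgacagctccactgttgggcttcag
Numa1 42-base exon (chr7:102002295-102002336, plus): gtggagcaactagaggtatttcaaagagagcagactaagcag
Cdk5rap2 27-base exon (chr4:70246948-70246974, minus): gggctgacgggaccacaggcataccag

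Exons that carry a stop codon in the reading frame of the exon before them are shown from their first base to that stop, which is in capitals. Each of the 4 stands in annotated transcripts of the nonsense-mediated decay class and in no protein-coding transcript of that annotation.
Ccnl1 73-base exon (shown chr3:65955246-65955276, minus): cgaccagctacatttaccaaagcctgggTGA
Ccnl2 126-base exon (shown chr4:155818539-155818560, plus): ggtagcctctgagggtaagTGA
Cenpa 137-base exon (shown chr5:30669692-30669735, plus): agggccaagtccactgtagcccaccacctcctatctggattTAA
Cenpa 54-base exon (shown chr5:30668999-30669033, plus): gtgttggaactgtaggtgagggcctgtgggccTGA

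Alternative splice sites of 4 genes are shown with 12 bases of the shared exon, and the segment present only in the longer form is in capitals. The longer segments of Cdc27, Top2a and Plk4 end in AG, the bases that precede a 3′ splice site, and that of Cdk10 begins with GT, the bases that follow a 5′ splice site.
Cdk10 alternative 5′ site (chr8:123227730-123227765, plus): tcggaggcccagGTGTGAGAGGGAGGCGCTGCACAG
Cdc27 alternative 3′ site (chr11:104526155-104526184, minus): ACTTTTTGTGTTTTACAGtctgttgcaaga
Top2a alternative 3′ site (chr11:98995364-98995378, minus): TAGttgatcttgaaa
Plk4 alternative 3′ site (chr3:40808747-40808767, plus): CTCATTTAGgagaaactaatg

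Junction reads summed over all events were 16707466, 14037425 and 13573870 in set 1 and 18185394, 14245004 and 13501749 in set 2. On the first principal component of gene junction totals (40.1% of variance), set 1 library 1 stood at -5.83, nearer to the set 2 libraries (-18 to -7.68) than to the other libraries of its own set (18.4 and 22). On the second component (26.7%) it stood at 18.9. There the rest of its set was at 0.959 and 0.596, and set 2 was at 8.91, -12.6 and -16.8, so that set 2 library 1 lay apart from the rest of set 2 as well. Hnrnpdl itself had 2014, 1806 and 1760 junction reads in set 1 and 2569, 2146 and 2034 in set 2, a log2 ratio of -0.22 ± 0.09 (SE) after scaling (limma adjusted p = 0.392). Of 18 neuronal and neuroblastoma marker genes, 10 were measured, and their summed junction total in CPM (reads scaled to the sum over genes of the library) was 2075 to 2615 in set 1 and 2768 to 2818 in set 2. The neuronal growth gene Gap43 stood at 409.4, 142.4 and 111.9 CPM in set 1 and 416.7, 404 and 278.6 in set 2, which overlap (log2 ratio -0.94 ± 0.35, limma adjusted p = 0.339). Map1b had a smaller log2 ratio, -0.34 ± 0.11 (limma adjusted p = 0.235). The median of the 10 markers was -0.24, and 2 of them were above 0. Of 24 markers of other cell types, 4 were in the table and 0 had the 20 reads per library needed for a test. A gene enters this table only through a listed splicing event, so a marker without a value says nothing about its expression.

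The inclusion level of an event is the share of transcripts, from 0 to 1, that use the segment, estimated from the junction reads of both forms after division by the length of each form. Events with a mean of 20 or more reads per library were tested, which 361 of the 369 events passed; 8 did not. A moderated quasi-binomial test on the inclusion and skipping reads called an event at an adjusted p under 0.05 (Benjamini-Hochberg over all events tested in the table) and a difference of 0.10 or more. By that rule, 0 of 361 events in the cell cycle genes were called, against 11 of 39419 (0.0279%) in the table as a whole, and the smallest adjusted p of a cell cycle event was 0.746. At an unadjusted p under 0.05 there were 6 of the 361 events (1.66%), against 3.8% of all events tested, and limma on logit levels gave 9 (2.49%) at that threshold, against 3.3% of all. A p that misses the threshold does not show that the levels of the sets were equal. For every tested event described below the adjusted p of this test was thus 0.746 or above, and it is not repeated. The 2 events described from the authors' calls were under the minimum count and outside this test.

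Differences between the sets were small for most events. The median absolute difference was 0.00541 over the 361 events and 0.0083 over all events tested, and 6 of the 361 (1.66%) differed by 0.10 or more, against 2.62% of all. In 21 events (5.82%, against 5.93% of all events tested) the 3 libraries of a set all lay on 1 side of the other 3, set 1 being higher in 12 and lower in 9. Only 2 of these 21 combined the separation with a difference of 0.10 or more, 1 skipped exon of Kif23 and 1 exon pair of Ect2. A plot of the mean level in set 1 against that in set 2 shows the events along the diagonal.

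**Figure D1:**
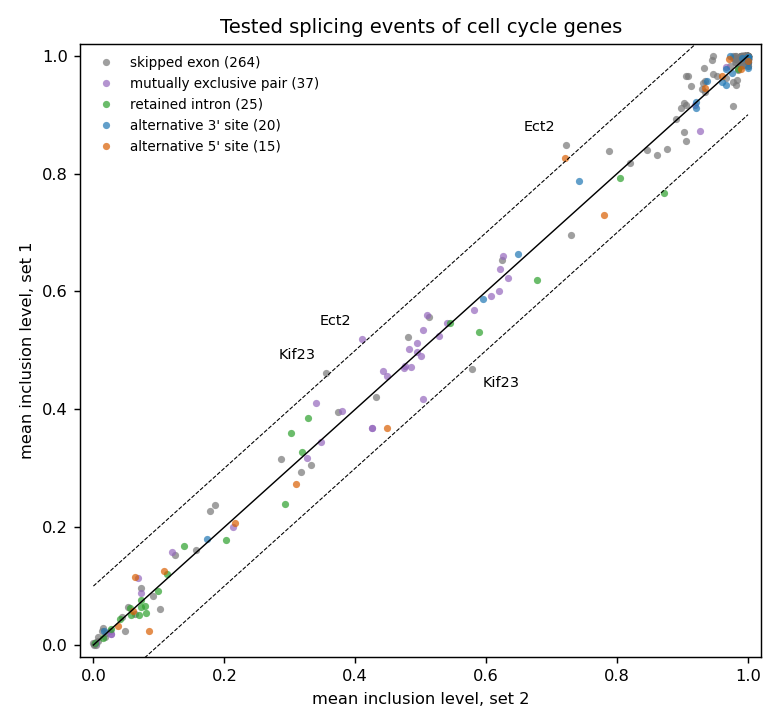
Mean inclusion level in set 1 (vertical axis) against set 2 (horizontal axis) for the 361 tested events of cell cycle genes, 1 point an event, coloured by kind; the solid line is equality and the dashed lines are differences of 0.10. Only 6 events lie on or beyond the dashed lines; the named points are 2 of Kif23 and 2 of Ect2.

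Most segments of these genes were used nearly always. Leaving out the exon pairs, 227 of 324 tested events (70.1%) had a mean level above 0.95, 20 (6.17%) lay below 0.05 and 77 (23.8%), in 33 genes, lay between; over the whole table these shares were 66.8%, 9.4% and 23.8%. Of the 77, 70 events in 32 genes had 30 or more reads on the rarer form over all libraries, a minimum set after the data were seen. They were 36 skipped exons, 19 retained introns, 9 alternative 5′ sites and 6 alternative 3′ sites. Their median absolute difference between the sets was 0.0222, the smallest p among them was 0.0317, and 4 differed by 0.10 or more. Skipped exons with a level under 0.95 had a length divisible by 3 in 27 of 50 cases (54%), and those at 0.95 or more in 68 of 182 (37.4%). In the whole table the same shares were 47.7% and 38.6%.

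Of the 6 events that differed by 0.10 or more, 4 were in genes of cytokinesis, Kif23 and Ect2. Kif23 encodes the kinesin of the centralspindlin complex, which bundles the microtubules of the spindle midzone. Its 312-base exon 18 of 23 (chr9:61923905-61924216, coding) had levels of 0.425, 0.507 and 0.452 in set 1 and 0.333, 0.387 and 0.348 in set 2. All 3 libraries of set 1 lay above those of set 2. The difference was 0.105, and leaving out each library in turn gave 0.0821 to 0.123. With another pair of neighbouring junctions the same exon was listed at 0.976, 0.923 and 1 in set 1 and 1, 0.889 and 0.826 in set 2, on only 11 skipping reads over all libraries, so the level of an exon depends on the junctions it is set against.

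The second alternative exon of Kif23, 42 bases long and coding, stood at 0.592, 0.451 and 0.362 in set 1 and 0.635, 0.535 and 0.564 in set 2. Its difference of -0.11 had the opposite sign to that of exon 18, and its libraries overlapped. Both exons keep the reading frame, and in both sets neither form was rare.

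Ect2 encodes the exchange factor that activates RhoA at the division plane. A mutually exclusive pair of Ect2 whose first listed exon has 46 bases (chr3:27146837-27146882) had levels of 0.587, 0.486 and 0.484 in set 1 and 0.389, 0.433 and 0.41 in set 2. For a gene on the minus strand, such as Ect2, the level of a pair counts the other exon and not the first listed exon. The sets did not overlap, and the difference was 0.109. As a pair level it needs the care described below for exon pairs and need not be a choice between 2 exons. The 93-base exon of Ect2 shown above was at 0.365, 0.328 and 0.251 in set 1 and 0.361, 0.276 and 0.225 in set 2 when set against its best covered skipping junction. Set against a rarer junction, which had 40 reads in all, that exon gave the largest difference of all tested cell cycle events, 0.126, with overlapping libraries (0.877, 0.925 and 0.743 against 0.662, 0.918 and 0.586). Another Ect2 pair with more reads, whose first listed exon starts at the same base and is 183 bases long, differed by 0.0495 and overlapped (0.578, 0.538 and 0.562 in set 1 against 0.549, 0.453 and 0.529 in set 2). There too the level counts the other exon of the pair.

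Prc1, whose protein cross-links antiparallel microtubules at the midzone, used its 42-base exon 14 in about equal shares with the form that lacks it. Levels were 0.487, 0.542 and 0.641 in set 1 and 0.46, 0.492 and 0.585 in set 2, which overlap. In Numa1, which encodes a protein of the spindle poles, the 42-base exon was at 0.833, 0.888 and 0.8 in set 1 and 0.842, 0.823 and 0.874 in set 2. Tpx2, which encodes an activator of Aurora A, has a 3-base alternative 3′ site in a non-coding (UTR) part of the annotated transcripts. Its longer form was at 0.765, 0.835 and 0.761 in set 1 and 0.751, 0.741 and 0.735 in set 2, a difference of 0.0448 without overlap, which was 0.0208 without set 1 library 2. A 13-base alternative 5′ site of Tpx2 overlapped, at 0.27, 0.312 and 0.236 against 0.296, 0.33 and 0.304. For Anln, a scaffold of the contractile ring, the best covered pair had mean levels of 0.524 and 0.528.

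Among the CDKs and their regulators, the best covered alternative exon was Cdk4 exon 2 of 8 (chr10:127064220-127064453), which holds the start codon of the G1 kinase. It had a mean of 4408 reads per library and 2185 reads on the skipping form in all. Levels were 0.842, 0.826 and 0.828 in set 1 and 0.881, 0.856 and 0.847 in set 2. Every library of set 1 lay below every library of set 2, and the mean difference was -0.0293. With the dispersion prior set along the total count the adjusted p was 0.0202, but the difference of -0.0293 stayed under the 0.10 needed for a call. A longer version of that exon, of 252 bases, stood at 0.728, 0.677 and 0.681 against 0.783, 0.715 and 0.693 and overlapped; it shares its skipping reads with the first.

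Cdk10, which encodes a CDK that binds cyclin M, held an event that the authors called in their deposited table (at an adjusted p under 0.05 and a difference of 0.10 or more). The authors called 2 of the 369 events (0.542%) and 294 of all 45595 (0.645%). The Cdk10 event is the retention of a 563-base intron (chr8:123227766-123228328), at levels of 1, 0.714 and 1 in set 1 and 0.444, 0.6 and 0.333 in set 2. These levels rest on 12, 5 and 4 inclusion reads and 0, 1 and 0 skipping reads in set 1, and on 8, 6 and 5 inclusion and 5, 2 and 5 skipping reads in set 2. Every set 1 level lay above the set 2 levels. The authors' deposited table gives it a difference of 0.446 and an adjusted p of 0.00124. Its mean of 8.833 reads per library was under the minimum of the main test. With no minimum count, the quasi-binomial test gave it an unadjusted p of 0.0244 and an adjusted p of 0.751.

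The 24-base alternative 5′ site of Cdk10, whose added bases end at the base before that intron, was used at 0.0248, 0.0453 and 0 in set 1 and 0.0625, 0.061 and 0.13 in set 2. Set 1 was lower in every library, by 0.0611, on 24 reads of the longer form in all; without set 2 library 3 the difference was -0.0384. The retained intron that begins at the upstream site, 587 bases long, had better coverage of spliced reads and overlapped, with mean levels of 0.0504 and 0.0582. Of the other CDK genes, Cdk2 carried a 144-base in-frame exon at 0.152 and 0.125, Cdk11b a 119-base alternative 5′ segment at 0.125 and 0.108, and Cdk5rap2, a gene of the centrosome, the 27-base exon shown above at 0.294 and 0.317 (means of set 1 and set 2). Libraries of the sets overlapped in each of these 3 events. The Wee1 kinase, which holds CDK1 inactive, had 1 event, a 147-base exon at 0.848, 0.869 and 0.851 in set 1 and 0.96, 0.897 and 0.861 in set 2. For Cdk1 the best covered pair stood at 0.56, 0.562 and 0.581 against 0.581, 0.585 and 0.579.

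Cyclins L1 and L2, which pair with splicing-linked CDKs, carried well covered mixtures of forms. The 73-base poison exon of Ccnl1 was at 0.497, 0.61 and 0.461 in set 1 and 0.534, 0.429 and 0.477 in set 2. The 126-base poison exon of Ccnl2 was at 0.296, 0.339 and 0.28 in set 1 and 0.345, 0.315 and 0.338 in set 2. In both genes the libraries overlapped, and the differences were 0.0422 and -0.0277. The 551-base intron that ends at the base before the Ccnl2 exon (chr4:155817988-155818538) was retained at 0.362, 0.371 and 0.342 in set 1 and 0.327, 0.331 and 0.248 in set 2. It did not overlap, with a difference of 0.0563, which was 0.0293 without set 2 library 3. A 1689-base intron of Ccnl1 was retained at 0.374, 0.376 and 0.405 against 0.289, 0.418 and 0.278, which overlap. The 188-base alternative 5′ segment of Ccnl1 (chr3:65950025-65950212) differed by 0.105, with levels of 0.816, 0.842 and 0.821 in set 1 and a wide spread of 0.662, 0.559 and 0.943 in set 2; it was 0.024 without set 2 library 2 and 0.216 without set 2 library 3.

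In the mitotic cyclin gene Ccnb1, skipping of a coding exon was rare. Exon 8 of 9 of this gene, which encodes cyclin B1, was skipped by 0 reads in each library of set 1 and by 4, 2 and 7 reads in set 2, beside 1030 to 2008 inclusion reads. The levels, 1, 1 and 1 against 0.997, 0.998 and 0.992, gave a difference of 0.00453, which rests on 13 reads and was 0.00277 without set 2 library 3. The best covered pairs of Ccna2, Ccnb1 and Ccne1 had mean levels of 0.503, 0.498 and 0.513 in set 1 and 0.482, 0.495 and 0.495 in set 2.

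Such middle values in exon pairs need reading with care. Of 37 tested pairs in 20 genes, 27 had a level between 0.3 and 0.7. For 36 pairs both exons were also listed as skipped exons, and in 32 of those both were included at a level above 0.9; 26 of the 32 had a pair level between 0.3 and 0.7. A pair level compares junctions of an exon with junctions of the next, so it is near the middle when both exons are in most transcripts. An example is Ttk, which encodes the checkpoint kinase MPS1. It had a pair at 0.41, 0.428 and 0.412 in set 1 and 0.514, 0.465 and 0.531 in set 2, while its 154-base exon 2 as a skipped exon was at 0.958, 1 and 0.972 in set 1. The Ttk pair did not overlap and differed by -0.0863. A second Ttk pair differed by -0.0565. The skipped-exon level is given here for only 1 exon and 1 set, and how the pair difference arose was not tested.

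In the centromere and kinetochore genes Cenpa, the histone H3 variant that marks the centromere, had 16 events. Its 137-base exon with the TAA stop was at 0.379, 0.404 and 0.403 in set 1 and 0.42, 0.362 and 0.339 in set 2, on 1586 reads of the rarer form. The means of 0.395 and 0.374 differed by 0.0217, less than the spread within set 2 (SD 0.0415). The 54-base exon was at 0.088, 0.0662 and 0.135 against 0.0549, 0.0911 and 0.0721 when set against its best covered skipping junction. Set against a rarer junction, the same 54-base exon is the other call of the authors' deposited table (difference -0.208, adjusted p 0.0167). There it had 8, 7 and 9 inclusion and 6, 0 and 5 skipping reads in set 1, and 5, 7 and 3 inclusion and 0, 0 and 1 skipping reads in set 2. The levels were 0.496, 1 and 0.57 against 1, 1 and 0.689, which overlap (difference -0.111 without set 1 library 1 and -0.363 without set 1 library 2). Its mean of 8.5 reads per library was under the minimum of the main test. With no minimum count, the quasi-binomial test gave it an unadjusted p of 0.166 and an adjusted p of 0.751. The listed difference had the opposite sign to that of the better covered junction (0.0238).

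Cenpt, a link between the centromere and the outer kinetochore, accounted for 6 of the 26 retained introns. Of these, the one 94 bases long had the largest difference of any tested intron, -0.105, with overlapping levels of 0.541, 0.803 and 0.958 in set 1 and 0.841, 0.886 and 0.889 in set 2. Nuf2 and Ndc80 encode subunits of the complex that binds microtubules. The 76-base exon 2 of Nuf2, non-coding in its annotation, was at 0.662, 0.62 and 0.677 in set 1 and 0.652, 0.628 and 0.594 in set 2. Exon 2 of Ndc80, 110 bases, was at 0.995, 0.995 and 1 against 0.991, 0.952 and 0.99, where 11 of 17 skipping reads came from set 2 library 2, without which the difference of 0.0191 was 0.00632. For the kinetochore motor Cenpe, exon 2 had 4 skipping reads, all in set 1 library 2, so that no difference was left without it.

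Across the 26 retained introns, 25 were tested, at levels from 0.0034 to 0.98 with a median of 0.116, against 0.0965 for all 2219 introns tested in the table. Set 1 had the higher mean in 10 and the lower in 15, differences ran from -0.105 to 0.0567, and the smallest p was 0.169. The introns were 72 to 2341 bases long. Sequence was at hand for 24, all of which begin with gt and end in ag, and 20 of the 23 that follow a coding exon hold a stop codon in its frame. For Cdc7, the kinase that fires replication origins, the 788-base intron was retained at 0.336, 0.316 and 0.328 in set 1 and 0.313, 0.326 and 0.319 in set 2. Its difference was 0.00766, and the sets overlapped.

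In the remaining classes no tested event differed by 0.10 or more. In the replication and G1/S class, the 960-base exon 6 of Mki67, which encodes the proliferation marker Ki-67, was at 0.908, 0.896 and 0.874 in set 1 and 0.961, 0.885 and 0.823 in set 2. Top2a, the topoisomerase that untangles sister chromatids, kept the 3-base TAG of its alternative 3′ site at 0.657, 0.65 and 0.682 against 0.634, 0.657 and 0.652, on 1948 reads of the rarer form. The 138-base exon 5 of Cdc45, a helicase cofactor, was at 0.955, 0.933 and 0.96 against 0.956, 0.889 and 0.895. These 3 events overlapped between the sets.

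Of the checkpoint and APC/C genes, Cdc16 gave the smallest p of any cell cycle event. Exon 12 of 18 of this APC/C subunit was skipped by 0 reads in each library of set 1 and by 2, 2 and 12 reads in set 2 (levels 1, 1 and 1 against 0.998, 0.997 and 0.979). Of its 16 skipping reads, 12 came from set 2 library 3, without which the difference of 0.00895 was 0.00287. Cdc27, another APC/C subunit, used the longer form of its 18-base alternative 3′ site at 0.183, 0.168 and 0.187 in set 1 and 0.165, 0.205 and 0.147 in set 2. The checkpoint gene Mad1l1 had a pair at means of 0.369 and 0.426, with overlapping libraries, and the best covered pair of Cdc20 had means of 0.593 and 0.608.

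In the mitotic kinase and chromosomal passenger class, Plk4, the kinase that starts centriole duplication, kept the 9 bases of its alternative 3′ site at 0.985, 0.988 and 0.994 in set 1 and at 1 in every library of set 2, on 6 reads of the shorter form. The best covered pairs of Birc5 (survivin) and Aurka (Aurora A) had means of 0.547 and 0.465 in set 1 and 0.54 and 0.443 in set 2. Condensin, the complex that compacts mitotic chromosomes, had the smallest median absolute difference of the 8 classes, 0.00312 over 37 tested events. Its alternative 5′ site of 76 bases in Smc2 was at 0.773, 0.747 and 0.669 against 0.754, 0.797 and 0.788 (difference -0.0506, or -0.0205 without set 1 library 3), exon 18 of Smc4 at 0.988, 1 and 0.994 against 0.989, 0.973 and 0.985, and the 304-base intron of Ncapg at means of 0.0764 and 0.0724.

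**Figure D2:**
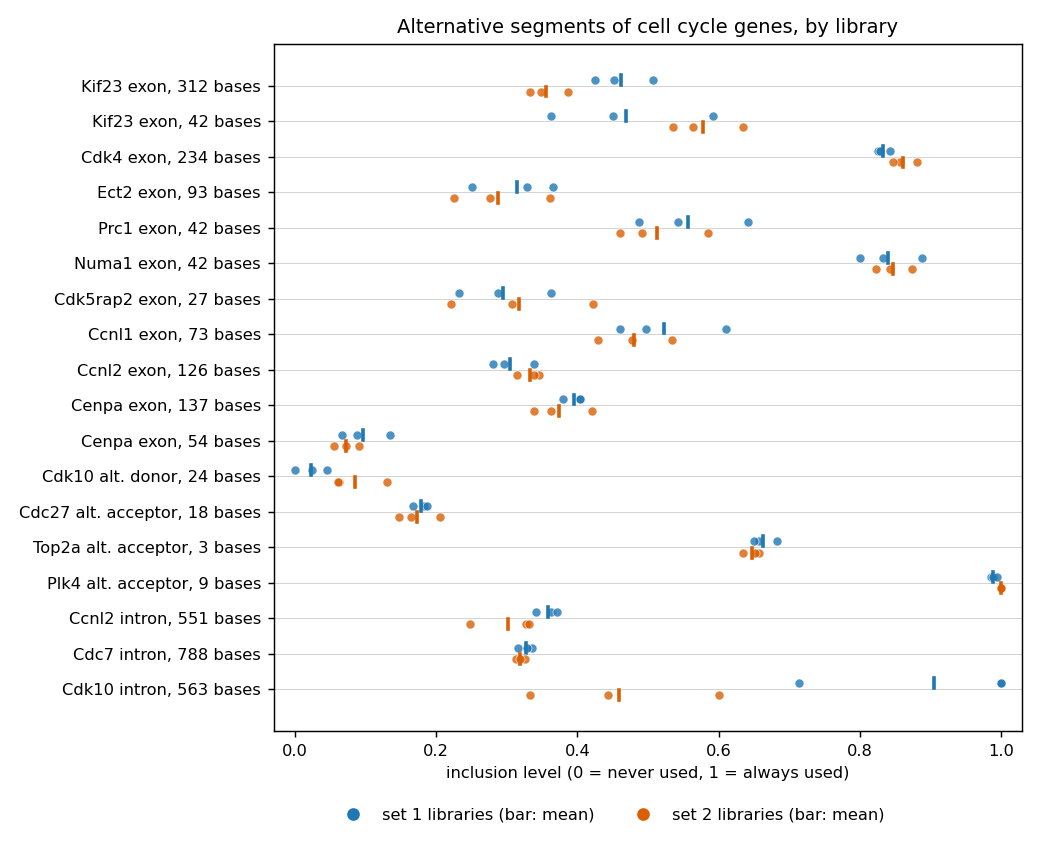
Inclusion level (horizontal axis, 0 to 1) of 18 segments of cell cycle genes, 1 row a segment, with 3 points for the libraries of each set and a bar at the mean. The sets separate for Kif23 exon 18 (312 bases), the Cdk4 exon, the Plk4 acceptor, the Ccnl2 intron and the Cdk10 donor and intron, and overlap in the other rows. The Cdk10 intron rests on a mean of 8.833 reads per library and is not independent of the Cdk10 donor.

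Of the 6 events at an unadjusted p under 0.05, those in Cdc16, Ccnb1, Ndc80, Plk4 and Cenpe rested on 4 to 17 reads of the rarer form over 6 libraries, and only that in Cdk4 had both forms at depth. By class, the number at that threshold was 2 of 57 tested events for the centromere and kinetochore, 1 of 43 for the cyclins, 1 of 67 for the CDKs, 1 of 30 for the mitotic kinases and 1 of 42 for the checkpoint and APC/C, and 0 of 35, 50 and 37 for replication, spindle and condensin.

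The level of each gene was followed by a junction total, the reads of both forms of its best covered event, in CPM. Such a total moves with expression and with the use of that event together, and in a culture fewer cycling cells and less RNA per cell cannot be told apart. By limma on log2(CPM + 1), 0 of 57 genes were called at an adjusted p under 0.05, against 88 of 8285 genes in the table (1.06%). At an unadjusted p under 0.05 there were 6 genes (10.5%, against 9.45% of all), 5 lower and 1 higher in set 1. The log2 ratio was below 0 in 42 genes and above 0 in 15 (73.7% below, against 47.7% of all genes), with a median of -0.07 against 0.01 for all genes and a median SE of 0.14. Leaving out each library in turn left 36 to 46 of the 57 below 0. In 7 genes (12.3%, against 6.67% of all) every set 1 library was below every set 2 library, and in 1 gene (1.75%, against 7.4% of all) every one was above.

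**Figure D3:**
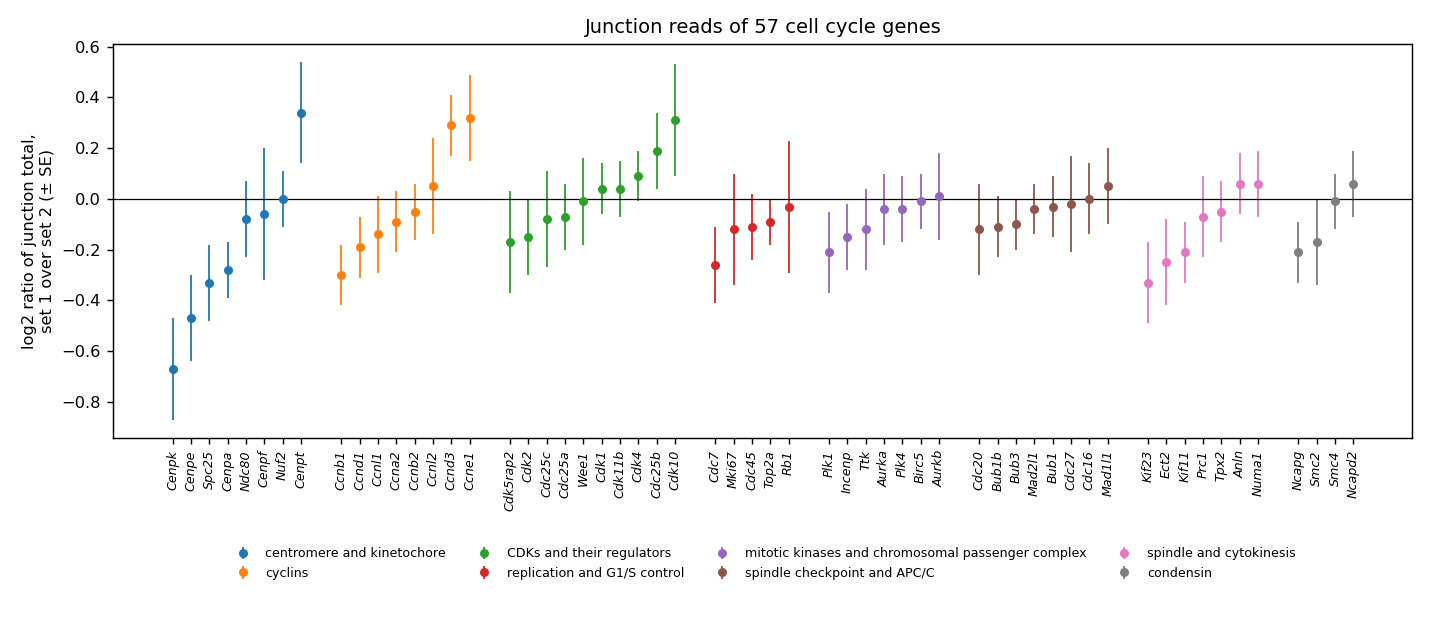
Log2 ratio of the junction total, set 1 over set 2, on the log2(CPM + 1) scale (vertical axis, points with bars of 1 SE) for the 57 cell cycle genes, coloured by class and ordered within it. Ratios run from -0.67 for Cenpk to 0.34 for Cenpt, and 42 of 57 points lie below 0.

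The centromere and kinetochore genes had the lowest class median, -0.18, and the widest range, -0.67 to 0.34. Of the 8, 6 were below 0 (47.7% of all genes were) and 3 were lower in set 1 without overlap (6.67% of all genes were). Classes were not tested against each other. Cenpk, a subunit of the inner kinetochore network, had 30.75, 22.31 and 18.2 CPM in set 1 and 40.22, 40.03 and 33.07 in set 2. Every library of set 1 was lower, with library 1 closest to set 2, and the log2 ratio was -0.67 ± 0.20 (SE; limma adjusted p = 0.169). Without set 1 library 1, which stood apart from its set as set 2 library 1 did from its own, Cenpk was called (log2 ratio -0.87, limma adjusted p = 0.0122). It was the only one of the 57, in a fit that called 287 of all genes. Over the fits that left out a library, the adjusted p of Cenpk ran from 0.0122 to 0.602.

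Cenpe had 36.1, 26.35 and 39.6 CPM in set 1 and 47.35, 51.03 and 42.2 in set 2, without overlap (log2 ratio -0.47 ± 0.17, limma adjusted p = 0.354); without set 1 library 2 it was -0.30. Cenpa had 130.9, 153.8 and 132.8 CPM in set 1 and 175, 177.4 and 156 in set 2, also without overlap (-0.28 ± 0.11, limma adjusted p = 0.399). Spc25, a subunit of the Ndc80 complex, overlapped, at 45.82, 58.15 and 45.5 against 55.95, 69.29 and 62.93 CPM (-0.33 ± 0.15, limma adjusted p = 0.511). Its partners in that complex were closer to 0, with log2 ratios of -0.08 for Ndc80 and 0.00 for Nuf2. In the class, Cenpt had the highest ratio, 0.34 ± 0.20 (limma adjusted p = 0.677).

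The cyclins stood on both sides of 0. Ccnb1 had 529.2, 509.6 and 383.9 CPM in set 1 and 539.7, 600.9 and 593.8 in set 2, without overlap (-0.30 ± 0.12, limma adjusted p = 0.402); without set 1 library 3 the log2 ratio was -0.15. The paralogue Ccnb2 had a log2 ratio of -0.05 and Ccna2 one of -0.09. Ccnd3, which encodes the G1 cyclin D3, was the single gene with all libraries of set 1 higher, at 85.89, 98.73 and 99.85 against 73.68, 75.14 and 83.17 CPM (0.29 ± 0.12, limma adjusted p = 0.46). Ccnd1, the related cyclin D1 gene, had a log2 ratio of -0.19. Ccne1, the cyclin of S phase entry, overlapped at 90.65, 66.93 and 90.75 against 78.25, 54.07 and 66.88 CPM (0.32 ± 0.17, limma adjusted p = 0.616), and without set 2 library 2 the log2 ratio was 0.18.

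**Figure D4:**
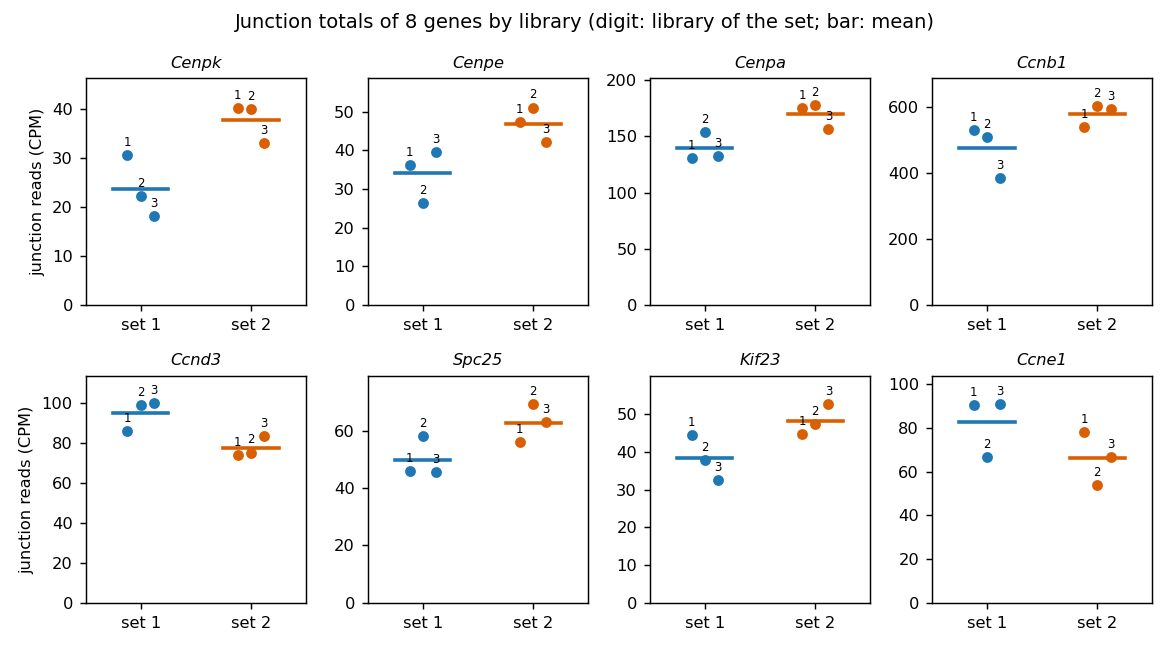
Junction total in CPM (vertical axis, from 0) of the 8 cell cycle genes with the smallest p, 1 panel a gene, with 1 point a library (the digit is its place in the set) and a bar at the mean. Cenpk, Cenpe, Cenpa, Ccnb1 and Kif23 are lower in all libraries of set 1, Ccnd3 is higher in all, and Spc25 and Ccne1 overlap.

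The other separated genes were Kif23, Kif11 and Cdc7. Kif23 had 44.43, 37.74 and 32.46 CPM in set 1 and 44.61, 47.29 and 52.56 in set 2 (-0.33 ± 0.16, limma adjusted p = 0.548). Kif11, the kinesin that pushes spindle poles apart, had a log2 ratio of -0.21 and Cdc7 one of -0.26. The most abundant totals were those of Cdk4, at 889.2, 1167 and 976.4 CPM in set 1 and 949.4, 986.7 and 905.7 in set 2, and of Cdk1, at 596.9, 762.8 and 692.3 against 618.7, 704.1 and 671.2. Both overlapped, with log2 ratios of 0.09 ± 0.10 and 0.04 ± 0.10. Top2a (-0.09 ± 0.09), Birc5 (-0.01 ± 0.11) and Bub3 (-0.10 ± 0.10) were also among the 6 highest. In the remaining classes 5 of 5 replication and G1/S genes, 7 of 8 checkpoint and APC/C genes, 6 of 7 mitotic kinase genes, 5 of 7 spindle genes and 3 of 4 condensin genes had ratios below 0, with class medians from -0.11 to -0.04, and the CDK class was divided 5 to 5 (median 0.02).

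Over all 57 genes the summed junction total was 7951.6, 8495.7 and 7714.3 CPM in set 1 and 8227.3, 8687.1 and 8194.2 in set 2, which overlap. Of the 10 neuronal markers measured, 8 had a log2 ratio below 0 and 2 above (median -0.24), 2 were lower in set 1 without overlap and 0 were called. Set 1 library 1 and set 2 library 1 each lay apart from the rest of their set. The part of the markers or of these libraries in the ratios of the cell cycle genes was not tested. A wider list of 143 cell cycle genes outside the 60, such as replication licensing factors, cohesin and further kinesins, had 129 in the table. Of their 653 tested events 0 were called and 19 (2.91%) had an unadjusted p under 0.05, and 0 of the 129 genes were called by junction total. Their ratios were below 0 in 71 and above 0 in 58, with a median of -0.02. Of the 129, 6 were lower in set 1 without overlap and 4 were higher (6.67% and 7.4% of all genes were).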

How the data were processed

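The authors deposited 1 table of events in the layout of rMATS. Per the file headers it holds whole-number junction read counts of each form, inclusion levels (a fraction from 0 to 1), form lengths, a p-value and an adjusted p. HISAT2 2.1.0, Bowtie2 2.2.3, HTSeq 0.6.0 and the build mm10 are named, without roles, in the submitters' processing notes; the event caller's version is not given in the sources used here. Levels recomputed from the reads and lengths matched within 0.0005.

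From these counts a moderated quasi-binomial test was run on the whole table (R 4.3.3, limma 3.58.1). Its dispersion was moderated along the rarer form's count, with the prior from events with 5 or more such reads and a floor of 1, within each kind of event, followed by Benjamini-Hochberg adjustment over all kinds. Junction totals were tested as log2(CPM + 1) by limma with a mean-variance trend, for genes with a mean of 20 or more reads. The scripts were tested on simulated data with a fixed spread that was not estimated from the counts. A first simulation with far more spread failed its check. The spread was then lowered towards that of the real events, and the test itself was not changed. Passing this check therefore holds for that spread only and does not tell how small a difference could be called here. Annotation and sequences came from GENCODE vM21. The gene list, the classes, the marker lists and the form of the test were chosen with earlier results of these data known.

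Events picked for naming were those called by the test or by the authors. In each class the 2 of smallest p and up to 3 with the most reads on the rarer form were added. Up to 8 with the largest difference without overlap were added over all classes. Picked events not described above were pairs of Cenpf (difference 0.0298), Top2a (-0.0123), Cdc16 (-0.00921) and Smc4 (-0.0129), and exon 4 of Top2a (0.00451). Genes named by junction total were the 8 of smallest p and the 6 of highest CPM. Other events and genes given with values were chosen after their values were seen. Counting error is not the only error: PCR duplicates are not marked in such counts. The counts are junction reads only, so short exons and rarely spliced genes have low precision.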

Additional observations from a re-analysis of the deposited data

How the results depend on the processing

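No cell cycle event was called by the quasi-binomial test under any of the alternatives run, each changed on its own. They were another minimum count, no minimum or a larger minimum change, limma on logit levels, another dispersion prior and leaving out each library. A minimum of 5 or more reads on the rarer form was also run, chosen after seeing the data. With the dispersion prior along the total count, exon 2 of Cdk4 had an adjusted p of 0.0202 in the quasi-binomial test. Only its difference of -0.0293, under the minimum change, kept it from a call. That prior was not run together with no minimum change. Over the whole table the calls went from 11 to 64 with the prior along the total count, to 0 with limma, and to between 2 and 19 without a library. Called genes by junction total stayed at 0 except without set 1 library 1, so that leaving out a library gave 0 to 1; the gene is Cenpk. Calls in the authors' deposited table went from 2 to 1 at an adjusted p under 0.01 (the Cdk10 intron) and to 0 with a mean of 20 or more reads. Among single events and genes, 601 alternative values with a p kept their sign and gave no call. They include the Cdk4 value above, which passed the adjusted p threshold but not the minimum change. A further 14 values without a p, of the 2 events under the minimum count, kept their sign. The difference went to 0 in 2 (exon 2 of Cenpe without set 1 library 2 and exon 4 of Top2a without set 2 library 1). Of the rest, 1 gave a call (Cenpk) and 19 changed sign. Leaving out a library moved the difference from -0.0314 to 0.00415 for the Smc4 pair, -0.0227 to 0.00667 for the Anln pair, -0.00258 to 0.011 for the Ccnb1 pair, -0.00925 to 0.0537 for the Ccne1 pair, -0.0245 to 0.0014 for the Cdc16 pair, -0.00147 to 0.00843 for the Ncapg intron and -0.0304 to 0.0389 for Mki67 exon 6; the cause was not tested. It moved the log2 ratio from -0.05 to 0.13 for Cdk1, -0.02 to 0.17 for Cdk4 and -0.09 to 0.05 for Birc5, for which the sum over all events gave 0.02. No paired analysis was possible because the library columns carry no replicate numbers; the place of a library within its set was not taken as a pairing.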
